A study of Mus musculus with 6 samples.

Results

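The histone genes in the deposited T cell table were collected by name. Of 14597 genes in the table, 68 were chosen: 60 replication-dependent genes, whose symbols start with Hist1, Hist2, Hist3 or Hist4, and 8 genes whose symbols start with H2af or H3f, called variant genes here. Of those 8, 7 encode histones and the other, H3f3aos, is an antisense RNA beside H3f3a. The cells were sorted by their TCRβ from tumors of Foxp3-EGFP-DTR mice. These tumors grew under the skin from B16-F10, a mouse melanoma cell line. In this strain the Foxp3 locus, which is active in regulatory T cells, also drives a toxin receptor and a green marker, and giving the toxin (DTx) is meant to kill the cells that use the locus. By the labels, 3 samples came from PBS-treated animals and 3 from DTx-treated animals, and every animal carried both the tumor and the allele. The table pools all of them as 12818 cells in 6 libraries, told apart by a barcode suffix from 1 to 6. No label ties a suffix to a sample, so PBS and DTx were not compared, and no p-value is given. The libraries are described side by side.

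Each nucleosome holds the core histones H2A, H2B, H3 and H4, and H1 binds the linker DNA between nucleosomes. Replication-dependent histone genes lie in clusters, have no introns as a rule, and are transcribed when DNA is copied in S phase. Their mRNAs mostly end in a stem-loop in place of a poly(A) tail, and the stem-loop binding protein Slbp acts on that end. Variant histones are encoded by scattered genes with polyadenylated mRNAs, and many are made throughout the cell cycle. Activated T cells divide fast, which makes histone supply a large part of their biosynthesis.

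All 68 genes were found in the GENCODE vM21 annotation of GRCm38. The 49 Hist1 genes lie on chromosome 13, the 8 Hist2 genes on chromosome 3, the 2 Hist3 genes on chromosome 11 and the Hist4 gene on chromosome 6. By family, the 60 replication-dependent genes comprise 5 for H1, 17 for H2A, 16 for H2B, 10 for H3 and 12 for H4. The stem-loop was searched by the consensus of the histone 3′ stem-loop, with any base allowed at 5 positions, on the sense strand of annotated transcripts. It was found in 40 of the 60 replication-dependent genes (66.7%), in 1 of the 8 variant genes, H2afx, and in 89 of all 55341 annotated genes (0.161%). The lines below show it, in capitals, for the genes that carry the results: the most abundant H2A gene, a second H2A gene, H1 and H4 genes, and H2afx.
Hist1h2ae: caaaGGCTCTTTTCAGAGCCatt
Hist1h2ap: aaaaGGCTCTTTTCAGAGCCatc
Hist1h1e: caaaGGCTCTTTTCAGAGCCacc
Hist1h4i: taaaGGCCCTTTTTAGGGCCacc
Hist1h4c: aaaaGGCCCTTTTCAGGGCCacc
H2afx: caaaGGCCCTTTTAAGGGCCacc
The 5′ arm reads GGCTC in the H1 and H2A genes shown and GGCCC in the H4 genes and H2afx. The annotated transcript of Hist1h2ap ended 3 bases after the capitals, that of Hist1h2ae 151 bases, that of Hist1h1e 1153 bases and that of H2afx 822 bases after them.

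RefSeq promoter windows (GRCm38.p6, 250 bases before to 50 after the start) were matched for 61 of the 68 genes. They were searched on both strands for TATAAA, the TATA box, for CCAAT and for ATTTGCAT, the octamer. TATAAA was in 32 of 55 replication-dependent windows (58.2%) against 14.2% of all 27025 windows. CCAAT was in 47 of 55 (85.5%) against 37.9% of all windows, and it was in every H1, H2A, H2B and H3 window but in only 3 of 11 H4 windows. ATTTGCAT was in 11 of 55 against 1.75% of all windows, with 6 in H2A and 5 in H2B genes. Among the 6 variant windows, 5 held CCAAT, and 1, that of H3f3b, held TATAAA and ATTTGCAT as well. The windows of Hist1h2ae (chr13:23571171-23571470, minus strand) and H3f3b (chr11:116024455-116024754, minus strand) are shown with these motifs in capitals, since they are the most abundant genes of their classes and hold all 3 motifs, while their ratios between cycling and other cells, given below, differ widely. A match describes the letters only, on either strand and at any position. In the Hist1h2ae window TATAAA is on the opposite strand only, and the same match lies in the overlapping window of Hist1h2bg. Where windows of neighbouring genes overlap in this way, a match was counted for both.
Hist1h2ae: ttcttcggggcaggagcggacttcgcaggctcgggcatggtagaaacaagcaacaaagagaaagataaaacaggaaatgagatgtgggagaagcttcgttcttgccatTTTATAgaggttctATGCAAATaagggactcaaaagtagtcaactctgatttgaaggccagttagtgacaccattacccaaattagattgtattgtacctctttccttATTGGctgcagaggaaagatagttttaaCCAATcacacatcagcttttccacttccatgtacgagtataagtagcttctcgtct
H3f3b: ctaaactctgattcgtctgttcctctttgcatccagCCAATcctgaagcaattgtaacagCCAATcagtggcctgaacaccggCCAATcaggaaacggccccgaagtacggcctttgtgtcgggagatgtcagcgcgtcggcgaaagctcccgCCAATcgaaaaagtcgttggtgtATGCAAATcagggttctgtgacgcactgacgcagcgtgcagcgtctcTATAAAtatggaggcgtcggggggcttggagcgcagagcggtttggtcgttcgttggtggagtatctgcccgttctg

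A cell was called cycling when it held at least 1 UMI (a count of 1 captured RNA molecule) of Mki67 or Top2a, genes of dividing cells that are not histones. This gave 1103 cycling cells (8.61%) and 11715 other cells. From library 1 to library 6, cycling cells made up 4.05%, 1.10%, 2.56%, 13.2%, 18.7% and 16.0% of the cells. The median cycling cell had 3411 UMIs and the median other cell 1172, so levels are given as UMIs per 10,000 UMIs of the same cells. A ratio between populations was formed within each library from the UMIs that the reference cells of that library predict, and summed over libraries. Its 95% interval, like all intervals here, covers counting error only. T cell markers had at least 1 UMI in 99.7% of cycling and 94.9% of other cells. Melanoma markers had 67 UMIs in the table, and none of the 4 cells with at least 3 of them was cycling. B cell, myeloid, stromal and erythroid markers stood at 179, 237, 610 and 11 UMIs. The libraries shared 76 barcodes, between 2 and 8 for each pair of libraries, and the ratio without those cells was 7.19 for the replication-dependent genes against 7.20 with them.

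Replication-dependent histone genes were far higher in cycling than in other cells, and variant genes were moderately higher. Cycling cells held 28.2, 32.5, 49.9, 39.5, 57.1 and 53.8 replication-dependent UMIs per 10,000 in libraries 1 to 6, and other cells 8.13, 4.83, 10.9, 5.27, 5.48 and 9.49. Every cycling value was above every other value. The ratio was 7.20 (95% interval 7.04 to 7.37), with library values from 3.47 in library 1 to 10.4 in library 5, a range far wider than the counting interval.

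The 1103 cycling cells, 8.61% of all cells, held 20319 of the 32368 replication-dependent UMIs (62.8%). Variant UMIs were more numerous, 117318 in all, and 26.3% of them were in cycling cells. Cycling cells were deeper, with medians of 3411 against 1172 UMIs, so their share of all UMIs was also above 8.61%. Their level in cycling cells ran from 62.5 to 79.0 UMIs per 10,000 over the libraries and in other cells from 42.1 to 55.3, again without overlap. The variant ratio was 1.51 (1.49 to 1.53), from 1.13 in library 3 to 1.65 in library 2. Replication-dependent UMIs were 39.7% of all histone UMIs in cycling cells and 12.2% in other cells, and histone UMIs of both classes were 1.24% and 0.557% of all UMIs. By library the share ran from 30.4% to 44.4% in cycling cells and from 9.51% to 16.5% in other cells. These counts and shares are of captured UMIs. Capture used poly(A), and the captured part may differ between the 2 classes, so they do not give the makeup of histone mRNA.

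**Figure D1:**
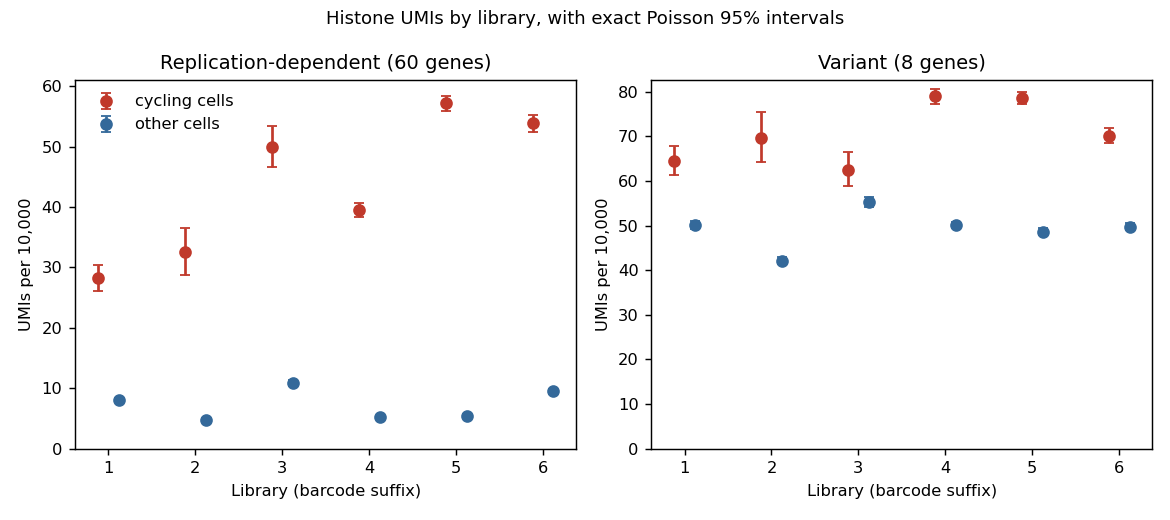
Replication-dependent and variant histone UMIs per 10,000 UMIs (vertical axes) in cycling (red) and other (blue) cells of libraries 1 to 6 (horizontal axes), with exact Poisson 95% intervals. The lowest replication-dependent level in cycling cells (28.2, library 1) lies above the highest in other cells (10.9, library 3), while variant levels differ less (62.5 against 55.3 in library 3).

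At the level of single cells the replication-dependent genes were uneven. In cycling cells 85.3% had at least 1 such UMI, and the median cell held 27.1 per 10,000 while the 90th percentile was 127. The 10% of cycling cells with the most replication-dependent UMIs held 37.1% of them. Among other cells, 47.5% had a UMI and the median was 0. After every cell was thinned to 1000 UMIs, which left out 4.90% of cycling and 39.7% of other cells as too shallow, the shares were 73.0% and 37.2%. Variant UMIs were found in 99.6% and 97.8% of the thinned cells. No T cell is known to lack histone transcripts, so background from free RNA could not be read from a negative population.

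Among the families, each taken as a sum of UMIs, H2A differed most between cycling and other cells. H2A genes had a level of 25.4 UMIs per 10,000 in cycling and 1.18 in other cells, a ratio of 17.9 (17.1 to 18.8) with library values from 9.95 to 33.0. H3 had a ratio of 5.93 (5.46 to 6.44), H2B of 5.76 (5.41 to 6.14) and H1 of 4.39 (4.20 to 4.58), and each was higher in cycling cells of all 6 libraries. H4 was lowest at 3.08 (2.91 to 3.25). Its values in libraries 1 and 3 were 1.15 (0.896 to 1.45) and 1.21 (0.950 to 1.53), where the interval includes 1, and in library 5 4.89 (4.34 to 5.52).

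Gene by gene, 54 of the 60 replication-dependent genes had at least 20 UMIs and entered the comparison, and the 6 others had between 5 and 15 UMIs each. A gene was called higher when its ratio was at least 2 and its direction was the same in every library with at least 5 of its UMIs. By this rule 34 of 54 genes were higher in cycling cells and 0 were lower, where 4.37% of all 11235 genes tested were called higher and 2.77% lower. There is no replicated test behind these calls. The median ratio was 4.85 over the 54 genes, against 0.994 over all genes. In 25 of the 54 the lowest cycling library was above the highest library of other cells, as in 4.42% of all genes. The called genes were 3 of 5 tested in H1, 9 of 13 in H2A, 12 of 15 in H2B, 7 of 9 in H3 and 3 of 12 in H4. Hist1 genes as a sum had a ratio of 7.72 (7.54 to 7.90), Hist2 genes 3.78 (3.40 to 4.19), the Hist3 pair 2.94 (2.52 to 3.43) and Hist4h4 1.17 (0.891 to 1.52). Levels of different genes are not compared further, since UMIs count molecules captured by a poly(A) primer and the captured part may differ between genes.

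Hist1h2ae (chr13:23570517-23571220), which encodes an H2A protein, held 8430 UMIs, 26.0% of those of its class, and 87.8% of them were in cycling cells. Its level in cycling cells was 8.03 at the lowest, 14.8 at the median and 22.2 UMIs per 10,000 at the highest library, and in other cells 0.187, 0.395 and 1.63. The ranges lie far apart, and the ratio was 21.5 (20.1 to 23.0), or 32.5 without library 6 and 36.7 with cycling defined by at least 3 UMIs of S and G2/M genes (the lists used below). With cycling set at 2 or more UMIs of Mki67 and Top2a, the ratio was lower, at 14.7 (14.0 to 15.4). Without Hist1h2ae the ratio of the class was 5.21 (5.08 to 5.35).

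Hist1h2ap (chr13:21833026-21833507), another H2A gene, had 2.21, 4.76 and 7.68 UMIs per 10,000 as lowest, median and highest cycling library, and 0.0613, 0.132 and 0.458 in other cells. Its ratio was 20.8 (18.3 to 23.7), 33.6 without library 6, and 13.0 with cycling set at 2 or more UMIs of Mki67 and Top2a. Only 7.63% of the 90-base words of its transcript occur in no other gene, so its counts depend on how reads shared with other H2A genes were assigned. The same holds for other members: 24 of the 60 genes had fewer than 50% words of their own and held 17.2% of the replication-dependent UMIs. The ratio was 6.89 (6.72 to 7.06) over the 36 genes with more unique sequence and 9.04 (8.55 to 9.56) over those 24.

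The H1 genes, which encode linker histones, spread widely. Hist1h1e had 2.11, 3.46 and 4.71 UMIs per 10,000 (lowest, median and highest library) in cycling cells and 0.517, 1.27 and 1.55 in other cells, with a ratio of 3.34 (3.13 to 3.56). Hist1h1b had 1.07, 1.55 and 2.70 against 0.0226, 0.0794 and 0.258, with a ratio of 13.9 (11.9 to 16.3). Both pairs of ranges were apart, but the relative difference was larger in Hist1h1b, where other cells had few UMIs. Hist1h1d had a ratio of 6.64 (5.91 to 7.47). Hist1h1c, with 0.352 to 1.58 in cycling and 0.370 to 1.03 in other cells, overlapped. Its ratio was 2.15 (1.93 to 2.40), it was higher in 5 of 6 libraries and so was not called, and the ratio was 1.65 without library 5.

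Of the H2B and H3 genes with the most UMIs, Hist1h2bj, an H2B gene, had 0.636, 1.25 and 1.93 UMIs per 10,000 in cycling cells and 0.0259, 0.122 and 0.204 in other cells, a ratio of 9.83 (8.35 to 11.6). Hist3h2ba, an H2B gene outside the large clusters, had 0.278, 0.594 and 1.06 against 0.163, 0.247 and 0.274, so its ranges nearly touched, and its ratio was 2.95 (2.52 to 3.46), or 1.95 with the list definition of cycling. Hist1h3e, which encodes H3, had 0.235, 0.778 and 1.11 against 0.145, 0.213 and 0.378, with overlap and a ratio of 4.45 (3.84 to 5.15). These genes were higher in cycling cells of all 6 libraries.

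The H4 genes encode the same histone and included the lowest ratios. Hist1h4d had 0.821, 1.17 and 1.96 UMIs per 10,000 in cycling against 0.217, 0.337 and 0.544 in other cells and a ratio of 4.61 (4.11 to 5.16). Hist1h4i had a ratio of 3.76 (3.40 to 4.16), with 0.676 as both its lowest cycling and its highest other value to 3 digits. A single cycling cell of library 4 held 60 of its 1562 UMIs, and the ratio without that cell was 3.46 (3.12 to 3.84). Hist1h4c had a ratio of 1.51 (1.24 to 1.82) with overlapping ranges and was higher in only 3 of 6 libraries. Without library 5 it was 0.948, so its direction rests on that library. Hist4h4 at 1.17, Hist1h4n at 1.21 (0.905 to 1.60) and the H2A genes Hist2h2aa1 at 1.22 (0.693 to 2.05) and Hist2h2ab at 0.981 had intervals that include 1. These last 4 were named after their values were seen.

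**Figure D2:**
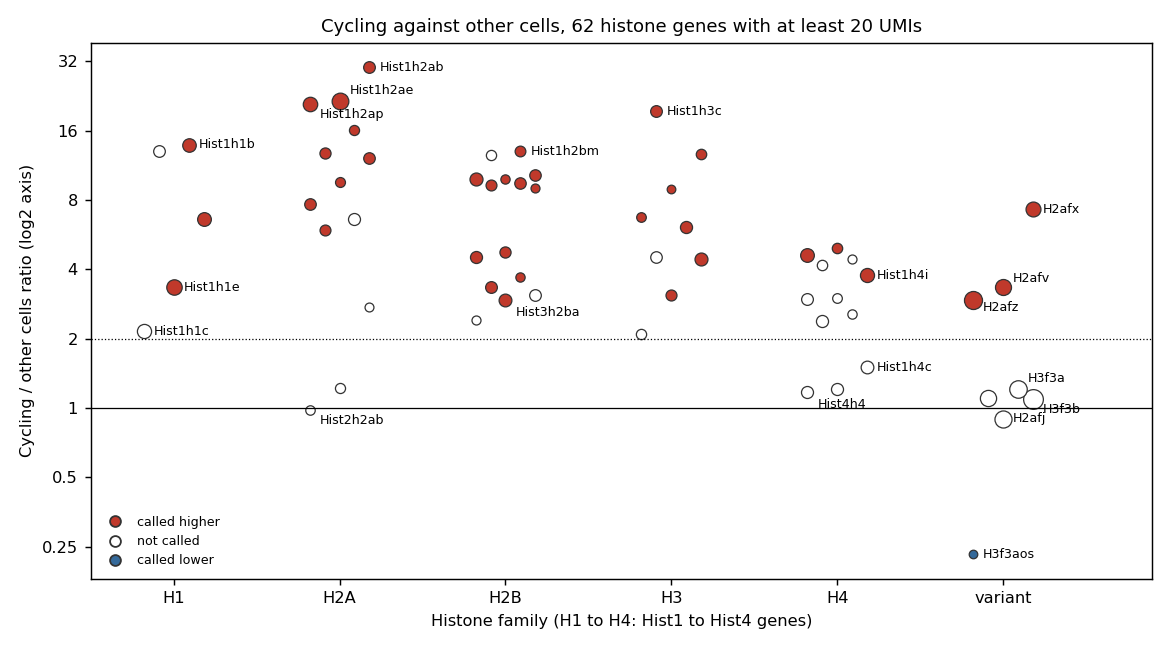
Cycling over other cells ratio (vertical log2 axis) of the 62 histone genes with at least 20 UMIs, by family; point size grows with the gene's UMIs, red points were called higher, blue lower, open points neither. H2A genes reach 30.2 (Hist1h2ab), all H4 genes lie below 5, and the variants split between H2afx, H2afv and H2afz above 2 and 4 genes near 1.

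Of the variant genes, 3 had ratios above 2, 4 had ratios between 0.900 and 1.21, and H3f3aos lay lowest. H2afz, which encodes the H2A.Z variant placed at promoters, had 13.9, 19.2 and 23.9 UMIs per 10,000 in the lowest, median and highest cycling library and 3.60, 6.19 and 7.95 in other cells. Its ranges did not overlap, and the ratio was 2.94 (2.86 to 3.03). H2afv, the second H2A.Z gene, had 3.75, 5.83 and 6.51 against 1.32, 1.64 and 2.02, a ratio of 3.36 (3.18 to 3.55). H2afx, whose protein is phosphorylated at DNA breaks, had 1.47, 3.57 and 4.62 against 0.485, 0.591 and 0.693, a ratio of 7.28 (6.73 to 7.89). These 3 of 8 variant genes were called higher and 1, H3f3aos, lower, where 4.37% and 2.77% of all genes tested were. H2afx is the variant in whose transcript the stem-loop was found.

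H3f3b and H3f3a, the genes for the replacement histone H3.3, had small differences. H3f3b, with 49.9% of all variant UMIs, ran from 23.7 to 29.5 UMIs per 10,000 in cycling and from 23.9 to 35.7 in other cells, and its ratio of 1.10 (1.07 to 1.12) came with only 3 of 6 libraries higher. With cycling defined by at least 3 UMIs of S and G2/M genes it was 0.964. H3f3a had 6.10 to 9.38 against 5.56 to 7.11 and a ratio of 1.21 (1.16 to 1.26), higher in 6 of 6 libraries. H2afy, the macroH2A gene, had a ratio of 1.11 (1.04 to 1.18), and H2afj, an H2A variant, had 0.900 (0.856 to 0.945) and was lower in cycling cells of every library. For H2afj the list definition of cycling gave 0.980 (0.942 to 1.02) and thinning to 1000 UMIs gave 0.915 (0.831 to 1.005). Both intervals include 1. With 2 or more UMIs of Mki67 and Top2a it was 0.887 (0.833 to 0.943). H3f3aos, an RNA read from the strand opposite H3f3a, had 27 UMIs, 1 of them in a cycling cell, with a ratio of 0.231 and an interval from 0.00564 to 1.41. It met the rule for a lower call on that count, and without library 6 no cycling UMI was left.

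Histones outside the naming rule gave a similar split. Cenpa, the centromeric H3, had a ratio of 5.46 (5.05 to 5.91), and H1f0, the H1 of resting and differentiated cells, 1.37 (1.24 to 1.52). H1fx had 43 UMIs and a ratio of 6.46 (3.31 to 13.2).

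Of 29 genes for histone supply and chaperones, 11 were called higher in cycling cells and 0 lower, where 4.37% and 2.77% of all genes tested were. The median ratio was 1.80, against 0.994 over all genes. Asf1b, a chaperone of H3 and H4, had the highest ratio, 7.50 (6.21 to 9.09), and 18.9 (13.8 to 26.5) with the list definition of cycling. Chaf1a, the large subunit of the assembly factor CAF-1, had 4.25 (3.25 to 5.57) and with that definition 6.69, and Anp32e, a chaperone of H2A.Z, 3.16 (2.93 to 3.42). Hjurp, the Cenpa chaperone, had 3.12 (2.57 to 3.77) but was higher in 5 of 6 libraries and so was not called. Slbp, which binds the stem-loop, had 1.81 UMIs per 10,000 in cycling and 0.740 in other cells, a ratio of 2.43 (2.22 to 2.66). The lowest were Daxx, a chaperone of H3.3, at 0.711 (0.580 to 0.865), Lsm10, a part of the U7 particle that cuts histone mRNA, at 0.867 (0.667 to 1.12), and Ubn1, a partner of the H3.3 chaperone Hira, at 0.959 (0.839 to 1.09). Mcm2 of this list is also one of the S phase genes used next.

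Within cycling cells, the histone level was set against 27 S phase genes and 34 G2/M genes. Cells with more S than G2/M UMIs (S-side, 441 cells) held 37.1 replication-dependent UMIs per 10,000, and cells with more G2/M than S UMIs (G2/M-side, 525 cells) held 62.4. The ratio was 0.591 (0.573 to 0.609) and lay below 1 in all 6 libraries, from 0.375 to 0.692. Variant genes had 65.3 against 85.1 and a ratio of 0.772 (0.754 to 0.790), also below 1 in all 6 libraries. The S genes themselves had a ratio of 1.88 and the G2/M genes of 0.239 between these sides, which they define. Of the cycling cells, 137 had equal UMIs of both lists and were left out, and 277 lay within 1 UMI of the boundary. Mki67 and Top2a, which define cycling, were also lower on the S-side, at 0.538 (0.482 to 0.600) and 0.637 (0.570 to 0.710). With cycling set at 2 or more of their UMIs, the replication-dependent ratio was 0.823 (0.795 to 0.851). The variant ratio was then 0.834 (0.809 to 0.859). The part of the cycling gate in these ratios was not tested.

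No replication-dependent gene was called higher on the S-side and 7 of 49 tested were called lower, where 2.38% of all 8437 genes were called higher and 2.82% lower. Hist1h2ae had 12.8 UMIs per 10,000 on the S-side and 23.5 on the G2/M-side, a ratio of 0.555 (0.528 to 0.584). Hist1h4i at 0.955 (0.822 to 1.11) and Hist1h4c at 1.10 (0.767 to 1.57) had intervals that include 1. Of the variants, H2afx at 0.308 (0.271 to 0.349) and H2afv at 0.483 (0.441 to 0.529) were called lower on the S-side, where H3f3b had 0.887 (0.854 to 0.922) and H2afj 1.04 (0.942 to 1.14). Cenpa, whose mRNA is known to peak in G2, had 0.218 (0.188 to 0.251). Slbp went the other way at 1.49 (1.28 to 1.73), as did Chaf1b, the middle subunit of CAF-1, at 2.62 (1.84 to 3.80).

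The split by sides joins cells with few histone UMIs to cells with many. Cycling cells with at least 4 UMIs of the lists were therefore put in order by the G2/M share of those UMIs, in steps of 20%. From the lowest to the highest step, the replication-dependent level was 13.0, 51.9, 69.2, 69.1 and 55.0 UMIs per 10,000, in 107, 157, 171, 215 and 192 cells. It was lowest where S genes made up nearly all of the list UMIs and highest where both lists were present. The lowest step was also the lowest in library 4 (12.6, against 46.3 to 60.2 in its other steps), library 5 (10.8, against 57.4 to 82.2) and library 6 (17.8, against 54.4 to 70.3), the libraries with more than 20 cells in every step. Hist1h2ae went from 3.90 to 17.3, 26.9, 26.9 and 19.5. Variant genes changed less, from 54.7 to 88.2 and then 80.9, and H2afx had its highest value, 6.71, in the last step. H3f3b ran from 19.5 to 33.3 and 27.3.

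**Figure D3:**
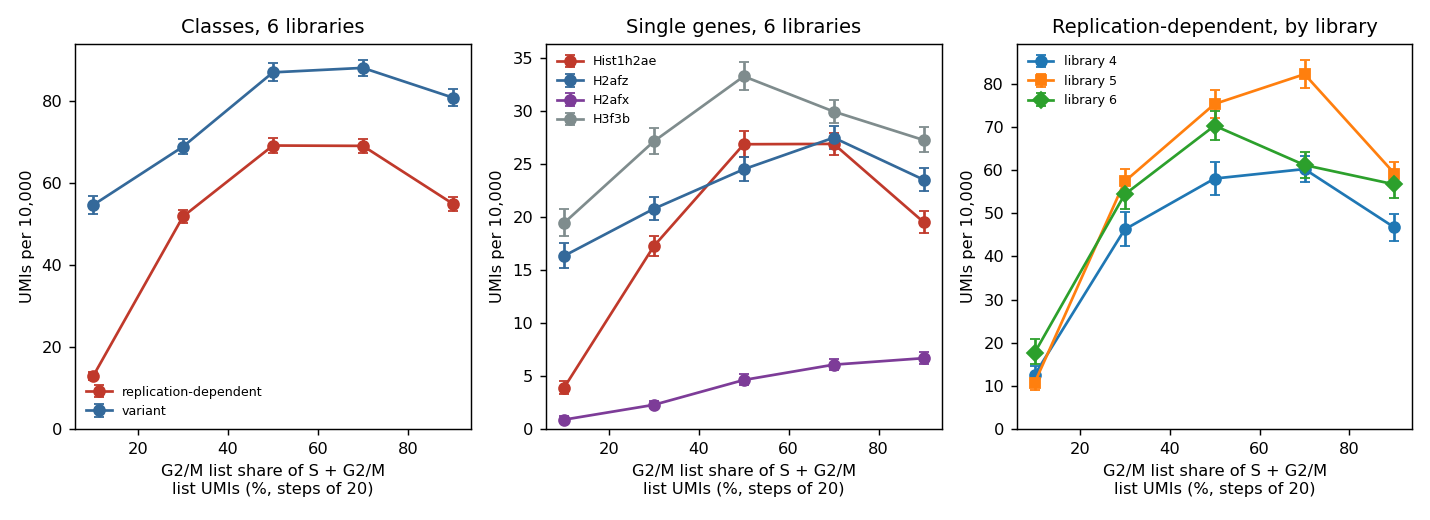
Histone UMIs per 10,000 (vertical axes) in cycling cells ordered by the G2/M share of their S and G2/M list UMIs (horizontal axes, steps of 20%), with exact Poisson 95% intervals: classes (left), 4 genes (middle) and replication-dependent genes in libraries 4, 5 and 6 (right). The replication-dependent level starts at 13.0, reaches 69.2 in the middle step and ends at 55.0.

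Across thinned cycling cells of libraries 4, 5 and 6 (230, 365 and 305 cells), Spearman's rho of replication-dependent UMIs was 0.691, 0.557 and 0.477 with the G2/M genes and 0.486, 0.355 and 0.359 with the S genes. With H2afz it was 0.524, 0.332 and 0.243, and with H3f3a 0.0109, 0.159 and 0.107. These describe cells that share a library, and no p is given.

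Other cells were split by their list UMIs, with the libraries pooled. Those with no UMI of either list held 6.56 replication-dependent UMIs per 10,000 (5788 cells), those with 1 or 2 held 5.87 (4474 cells), and those with at least 3 held 8.67 (1453 cells). Even the last was far below the 49.2 of cycling cells. Library values overlapped widely, from 3.62 to 11.2, 4.09 to 10.3 and 4.49 to 18.0. The median cell had 931, 1320 and 2608 UMIs, and the part of depth and library makeup was not tested. Variant genes had 47.8, 47.5 and 52.6.

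The difference was present in each T cell gate. CD4 cells were those with a Cd4 UMI and none of Cd8a, Cd8b1 or Foxp3, CD8 cells those with a Cd8a or Cd8b1 UMI and none of Cd4 or Foxp3, and Foxp3 cells those with a Foxp3 UMI and none of Cd8a or Cd8b1. In no gate were 7019 cells, 6838 of them with no UMI of these genes. CD4 cells held 40.3 replication-dependent UMIs per 10,000 when cycling (157 cells) and 6.82 otherwise (1048 cells), a ratio of 6.53 (6.11 to 6.98). It was above 1 in 5 of 6 libraries, and without library 5 it was 4.05. In the libraries with at least 10 cycling CD4 cells it was 4.55 (library 4), 10.3 (library 5) and 4.28 (library 6). CD8 cells held 51.9 when cycling (588 cells) and 6.55 otherwise (3909 cells), a ratio of 7.21 (6.98 to 7.46), with 2.93, 4.63, 8.35, 11.4 and 5.39 in libraries 1, 3, 4, 5 and 6. Foxp3 cells held 49.0 when cycling, in only 10 cells, and 6.50 otherwise, in 87, a ratio of 8.20 (6.36 to 10.6) that rests on libraries 1, 2 and 3. These held only 4, 4 and 1 cycling Foxp3 cells, and their ratios ran from 4.56 to 28.4, far wider than the counting interval. With the list definition of cycling the Foxp3 ratio was 4.55 (3.45 to 6.04).

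Variant ratios were 1.45 (1.40 to 1.50) in CD4, 1.52 (1.49 to 1.55) in CD8 and 1.57 (1.36 to 1.82) in Foxp3 cells. In CD4 cells 19 of 34 replication-dependent genes tested were called higher and in CD8 cells 30 of 52, where 4.68% and 4.74% of all genes were. No replication-dependent gene was called lower in either gate, where 5.1% and 2.67% of all genes were. Of 7 variant genes tested, 3 were called higher in each gate. Gate membership depends on detecting a UMI, and cycling cells were deeper in each gate, with medians of 3888 against 1477 UMIs in CD4 cells.

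**Figure D4:**
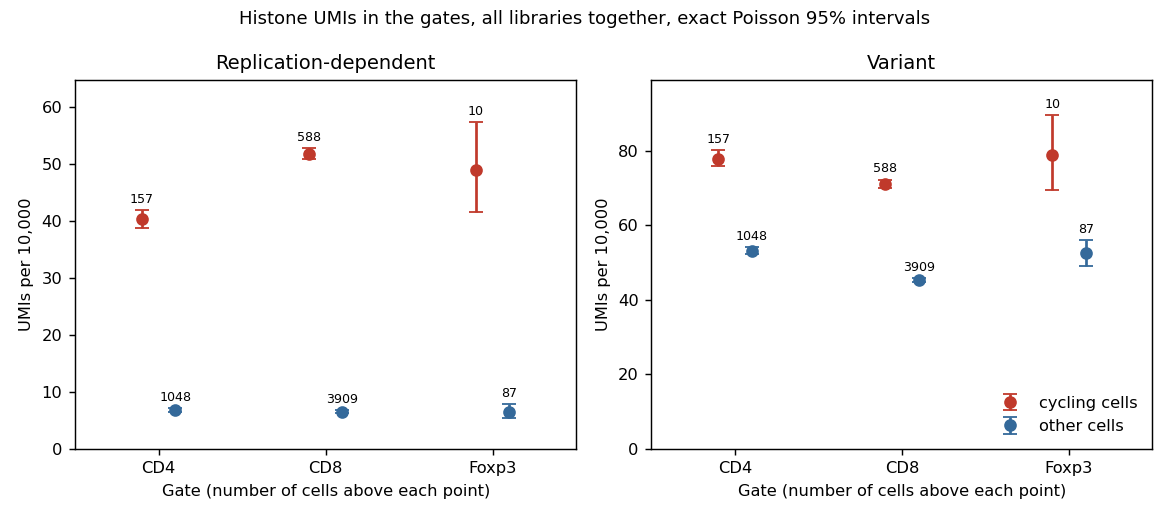
Replication-dependent (left) and variant (right) histone UMIs per 10,000 (vertical axes) in cycling (red) and other (blue) cells of the CD4, CD8 and Foxp3 gates, all libraries together, with exact Poisson 95% intervals and the number of cells above each point. Cycling cells lie at 40.3, 51.9 and 49.0 for replication-dependent genes, and other cells between 6.50 and 6.82.

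Cycling CD8 cells had a higher replication-dependent level than cycling CD4 cells of the same library, with a ratio of 1.24 (1.19 to 1.30). Libraries 4, 5 and 6 gave 1.63, 1.13 and 1.20. The S genes had a ratio of 1.23 (1.16 to 1.30) and the G2/M genes of 0.933 (0.893 to 0.975) in the same cells, and their part in the histone difference was not tested. H2afz went the other way, at 0.793 (0.749 to 0.839), with 0.868, 0.721 and 0.804 in those libraries, and variants as a sum had 0.940 (0.911 to 0.971). Of 45 replication-dependent genes tested, 4 were called higher in CD8 and 1 lower, which is near the background of 6.14% and 2.56%. Outside the cycling gate the CD8 level was 0.938 (0.883 to 0.997) of the CD4 level for replication-dependent and 0.877 (0.858 to 0.897) for variant genes. H2afz stood at 0.656 (0.621 to 0.693) there, but its library values ran from 0.470 to 1.26. In 3 of 6 libraries it was higher in CD8 cells, so its direction was not shared by the libraries.

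Foxp3 cells were compared with CD4 cells of the same library, over all cells and outside the cycling gate. Libraries 1, 2 and 3 held 49, 30 and 17 Foxp3 cells, and library 6 held 1, a cycling cell. Over all cells the replication-dependent ratio of Foxp3 to CD4 cells was 1.43 (1.24 to 1.64) in these 4 libraries, higher in 3 of 4 and at 0 in the last. In libraries 1, 2 and 3 alone it was 1.46 (1.25 to 1.70), from 1.10 to 2.34. Hist1h2ap, with 26 UMIs in Foxp3 cells, had 6.37 (3.10 to 13.9) in those 3, with library values from 3.10 to 43.6. Outside the cycling gate the class ratio in the same 3 libraries was 0.797 (0.638 to 0.988), from 0.387 to 0.938, and Hist1h2ap had 3 UMIs and a ratio of 1.63 (0.264 to 7.63). Cycling cells were 8.16%, 13.3% and 5.88% of Foxp3 cells in libraries 1, 2 and 3 against 6.21%, 1.99% and 1.63% of CD4 cells, and the part of this in the histone ratios was not tested. H2afz outside the cycling gate had 1.44 (1.16 to 1.79) and was higher in Foxp3 cells in 2 of 3 libraries.

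Whole libraries differed in histone level. Over all cells, replication-dependent UMIs per 10,000 were 9.84, 5.57, 14.4, 12.3, 20.6 and 23.0 in libraries 1 to 6. Library 3 stood above library 4 although fewer of its cells were cycling, and its other cells had the highest level, 10.9. Variant UMIs ran only from 42.9 to 57.4. The median cell had 610 UMIs in library 3 and more in every other library, and total UMIs ran from 1916305 to 5127776. What treatment a library had is not given, so these differences cannot be told apart from depth or animal.

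The annotated transcript end was compared with the ratio, since capture used poly(A). The 19 tested genes whose transcript runs past 100 bases beyond the stem-loop held 68.4% of the replication-dependent UMIs, and their summed ratio was 6.58 (6.40 to 6.76). This sum leans on Hist1h2ae, which held 8430 of their 22140 UMIs and had a ratio of 21.5. The 18 whose transcript ends within 100 bases held 18.2% and had 9.65 (9.13 to 10.2). The 17 in which no stem-loop was found, some of them annotated only as a coding stretch, had 7.95 (7.46 to 8.47). The median ratios were 4.19, 9.08 and 6.14, and within the group ending early they ran from 1.21 to 30.2.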

How the data were processed

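T cells were profiled with 10x 5′ libraries. Per the study's methods, the authors mapped reads to mm10 (the submitters' processing notes name mm9, Cell Ranger and Seurat), merged the libraries and filtered cells by genes detected. The deposited table holds raw UMI counts per gene and cell, with 201 to 2494 genes per cell. The study's filter had an upper as well as a lower limit on genes. Its part in the cycling shares and levels of the libraries was not tested. Whether depth was equalised when libraries were merged is not given in the sources used here. Ratios were computed with numpy 2.4.6, scipy 1.17.1 and pandas 2.3.3 in Python 3.11.15, as UMIs in one population over those expected from the other in the same library, with exact intervals (Clopper-Pearson on the 2 sums, Poisson for levels) and a minimum of 20 UMIs. The procedure was tested on simulated Poisson counts with the same fold in every library and no extra spread between cells. That test therefore covers counting error only. No count model was fitted, since no library is tied to a sample. No doublet caller was run; 168 cells with UMIs of both Cd4 and Cd8a or Cd8b1 were in neither gate, and the deepest 5% of cells of each library were left out as an alternative. Genes named were the 12 replication-dependent genes with most UMIs, variants with at least 20 UMIs, and of the supply list Slbp, the 4 highest and the 3 lowest ratios among genes with at least 50 UMIs. Further genes were named after their values were seen. Members and lists were chosen with earlier results of these data known. No column was left out as another series' sample. Sequences are from RefSeq (GRCm38.p6) and GENCODE vM21.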

Additional observations from a re-analysis of the deposited data

How the results depend on the processing

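No paired analysis was possible because the table does not tie its libraries to the numbered samples. Every class ratio kept its direction under each alternative run. Of the class ratios, shares, levels and counts of calls under alternatives, 146 stayed close to the value reported (ratios, shares and levels within its counting interval, which is narrow) and 101 did not. With cycling set at 2 UMIs or more of Mki67 and Top2a, replication-dependent ratios were 7.49 in all cells, 7.16 in CD4 and 11.6 in Foxp3 cells, and variant ratios 1.65, 1.63 in CD4, 1.63 in CD8 and 1.90 in Foxp3 cells. S-side over G2/M-side values were then 0.823 and 0.834, and the replication-dependent share 44.2% and 14.1%. With cycling set at 3 or more S and G2/M UMIs, replication-dependent ratios were 5.41, 4.93 in CD4, 5.96 in CD8 and 4.55 in Foxp3 cells, variant ratios 1.34, 1.50, 1.35 and 1.21, CD8 over CD4 values 1.06 and 0.854, and shares 31.6% and 11.5%. Thinned to 1000 UMIs, the replication-dependent ratio was 7.39, the S-side values 0.569 and 0.750, CD8 over CD4 values 1.34 and 0.983, and the share in other cells 11.6%. Thinned replication-dependent levels per 10,000 were 28.1, 55.9, 36.7, 55.1 and 57.6 in cycling cells of libraries 2 to 6, and 6.93, 8.76, 5.75 and 8.72 in other cells of libraries 1, 3, 4 and 6. Thinned variant levels were 58.2, 75.2 and 73.3 in cycling cells of libraries 3, 4 and 6, and 40.0 and 48.5 in other cells of libraries 2 and 6. As means over cells, the ratios were 6.92 and 1.48, the S-side value 0.564 and CD8 over CD4 values 1.31 and 0.979. Without the deepest 5% of cells, replication-dependent ratios were 8.47, 7.52 in CD4 and 8.50 in CD8 cells, variant ratios 1.57, 1.52, 1.57 and 1.29 in Foxp3 cells, and the share 41.4%. Without libraries as strata, replication-dependent ratios were 5.91 in CD4 and 7.92 in CD8 cells, and variant ratios 1.53 and 1.57 in CD8 cells. S-side values were 0.626 with a difference of at least 3 UMIs, and 0.697 and 0.841 with lists scaled to their means. Chosen after seeing the data, the ratios against other cells without list UMIs were 9.34 and 1.57, the ratio without Hist1h2ae 5.21, and the Foxp3 over CD4 ratio in libraries 1, 2 and 3 alone 1.46.

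Leaving out each library in turn gave 5.87 to 8.06 for the replication-dependent and 1.45 to 1.54 for the variant ratio. By gate the ranges were 4.05 to 7.45 in CD4, 5.82 to 8.69 in CD8 and 5.84 to 10.2 in Foxp3 cells, and 1.36 to 1.50, 1.47 to 1.57 and 1.50 to 1.61 for variants. S-side values ran from 0.559 to 0.613 and 0.747 to 0.809, CD8 over CD4 values from 1.18 to 1.33 and 0.929 to 0.961, and shares from 38.1% to 41.7% and 11.6% to 13.0%. Calls among replication-dependent genes ran from 33 to 40, among all genes from 502 to 585 and in the supply list from 11 to 13. Without a requirement on the libraries, 49 of 54 replication-dependent genes were called. That rule is looser for every gene, so the 4.37% of all genes called with the requirement is not its background. The count of 49 is therefore given without a background and is not read as a result about these genes. Of single genes, H3f3b turned to 0.964 with the list gate and Hist1h4c to 0.948 without library 5 (up to 1.67 without another library), and the cause was not tested. Hist1h2ap was 13.0 and Hist1h2ae 14.7 with 2 UMIs of the gate genes. With the list gate Hist1h2ae was 36.7, Asf1b 18.9, Chaf1a 6.69 and Hist3h2ba 1.95. Depth limits the 6 genes with under 20 UMIs and the 10 cycling Foxp3 cells.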

Other observations

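The cell with the most H2afz UMIs in the table, 108 of its 6251, was in library 4. It was named after its values were seen. It held no Mki67 or Top2a UMI, 17 UMIs of the S genes, 2 of the G2/M genes and 22 of the T cell markers. It held 0 replication-dependent histone UMIs, which allows up to 3 by counting error. The next cell had 103 H2afz UMIs. The cell with the most Hist1h2ae UMIs, 61, was a cycling cell of the same library with 12 S and 49 G2/M UMIs, and it held 48 further replication-dependent UMIs.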
